A study of Mus musculus with 39 samples.

Results

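The genes described here are 37 that encode the folding and secretion machinery of the endoplasmic reticulum. They were chosen by name for their function, but with earlier results of these data known. They range from Hspa5, the main Hsp70 chaperone of the compartment, to Serpinh1, a chaperone of collagen, and all 37 were among the 30012 gene names of the count table. Cultured fibroblasts from the lungs of WT C57BL/6 mice were measured without C1q at 0 h and after C1q, the protein that starts the classical route of complement, at 1, 10 or 100 µg/ml for 2, 24, 48 or 72 h. Each of these 13 groups held 3 libraries, 39 in all. The cells had been depleted of cells with CD45, CD31, EpCAM, CD146 or Ter119 on magnetic columns, passaged once into well plates and kept without serum for 24 h, so all groups, untreated cells included, share the starvation. The labels give no age, sex or number of mice and do not tie the 3 libraries of a group to separate wells or mice, so each p-value reflects only how these libraries scatter, and that scatter may be technical.

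Proteins bound for the cell surface, for lysosomes or for secretion enter the endoplasmic reticulum through the Sec61 channel, lose their signal peptide to signal peptidase, and are folded by chaperones and disulphide isomerases. Chains that do not fold are pulled back into the cytosol and degraded, a process called ERAD. When unfolded chains build up, the sensors encoded by Ern1, Atf6 and Eif2ak3 start the unfolded protein response, in which the transcription factors XBP1 and ATF6 raise the chaperone and ERAD genes, many of them through a promoter motif called the ER stress element. Lung fibroblasts are secretory cells, and collagen needs chaperones and prolyl isomerases of its own, among them the products of Serpinh1, Fkbp10 and Ppib.

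The promoters of the members are shown first because some of them hold a sequence that the unfolded protein response reads. The ER stress element is CCAAT, then 9 bases of any kind, then CCACG, on either strand. It was searched in windows from 250 bases before to 50 bases after an annotated transcript start, from RefSeq's GRCm38.p6 annotation. The 30 members with a window had 31 windows, and 28 of the members had one at the outer start of the gene. Derl2 had a second, internal window, and the windows of Edem1 and Spcs2 lay at internal starts alone, 4596 and 11457 bases into the gene. The element was found in 8 of the 30 members (26.7%), all 8 among the 28 (28.6%), against 37 of 27025 genes with such a window (0.137%). Each sequence below reads along the gene's own strand with 20 bases on either side, and the capitals mark the element, which reads CGTGG, 9 bases, ATTGG where it lies on the opposite strand. Hsp90b1 carried 2 copies, the first ending 194 bases and the second 89 bases before the gene's start. The Hspa5 copy ended 47 bases before the start and the Syvn1 copy 26 bases before it.
Hspa5, chr2:34772005-34772063, plus strand: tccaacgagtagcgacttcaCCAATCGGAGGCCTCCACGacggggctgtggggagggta
Hsp90b1, chr10:86705513-86705676, minus strand: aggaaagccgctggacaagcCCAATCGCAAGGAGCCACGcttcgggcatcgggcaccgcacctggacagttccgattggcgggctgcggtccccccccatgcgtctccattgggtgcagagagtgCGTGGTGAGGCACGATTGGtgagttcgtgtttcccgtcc
Pdia6, chr12:17266471-17266529, plus strand: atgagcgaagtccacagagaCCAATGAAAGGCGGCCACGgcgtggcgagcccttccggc
Canx, chr11:50325780-50325838, minus strand: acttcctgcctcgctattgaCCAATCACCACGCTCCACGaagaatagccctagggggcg
Creld2, chr15:88819500-88819558, plus strand: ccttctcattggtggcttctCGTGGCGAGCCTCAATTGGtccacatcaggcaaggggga
Syvn1, chr19:6046512-6046570, plus strand: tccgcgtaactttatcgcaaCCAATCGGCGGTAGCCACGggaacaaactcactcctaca

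The other members with this element were Dnajc3 and Derl3. The shorter ER stress element II, ATTGG, 1 base of any kind, CCACG, was found in Dnajb11 and Herpud1 (6.7% of the 30 members, 0.044% of all genes). The bare CCACG, which is also part of both elements, was found in 25 of the 30 (83.3%, against 35.482% of all genes). The core of another element read by XBP1 and ATF6, TGACGTGG, was in 193 of the 27025 genes (0.714%) and in 0 of the 30 members, which says only that these letters are not in these windows. A match describes the letters and is no measure of binding. Manf, Hyou1, Derl1, Sec61a1, Ssr2, Atf6 and Fkbp10 had no window.

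Library totals ran from 1806106 to 3012518 counts, and 36 of the 37 members had enough counts to be tested. Derl3, which encodes an ERAD factor, had 0 to 4 counts per library and is given by these counts only. Levels below are CPM, counts brought to a shared library size by edgeR's TMM scaling. They are compared for the same gene between libraries and not between genes. In untreated cells the members together held 1.289, 1.342 and 1.317% of all counts. The 9 fibroblast markers were all present, with a summed level of 7277 to 7933 CPM in untreated cells. Sums of 14 myeloid markers were 289.5 to 317 CPM in untreated cells and 1020 to 1746 CPM at 72 h, and those of 10 epithelial markers were 528.4 to 626.1 CPM in untreated cells and 93.26 to 128.7 CPM at 72 h. In bulk RNA, fewer cells of a type and less RNA per cell cannot be told apart, and the part of these markers in the results was not tested.

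Column names of the count table came in 2 spellings that were mixed with dose and time. The rarer spelling took in 9 columns: at 24 h all of 10 and 100 µg/ml and the third of 1 µg/ml, and at 48 h the first and the second of 1 µg/ml. What the spelling stands for is not given in the sources used here. The 1 µg/ml column among those at 24 h also stood apart from its group, with 9723 CPM over all members beside 11600 and 11340 CPM. For 100 against 1 µg/ml and 1 µg/ml against untreated cells, counts of members called at 24 h are therefore given with and without the mixed columns. The interaction of dose and time, the neighbouring times and the genes outside the list are given with all columns only.

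The sum over all 37 members shows in brief the course of the abundant ones. Serpinh1 adds a mean of 1779 CPM to it in untreated cells and Ern1 13.6 CPM, so members with few counts hardly enter. The sum was 13010, 13510 and 13040 CPM in the untreated libraries. It was between 12230 and 13450 CPM in the 9 libraries at 2 h, so these groups overlapped. At 24 h it was 11600, 11340 and 9723 CPM at 1 µg/ml, 10520, 10250 and 10730 CPM at 10 µg/ml, and 8035, 8312 and 8449 CPM at 100 µg/ml. At 48 h the libraries of 100 µg/ml reached 9845, 9915 and 10050 CPM, and at 72 h 9389, 9448 and 9521 CPM. All 100 µg/ml libraries from 24 h on lay below every 1 and 10 µg/ml library of the same time.

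**Figure D1:**
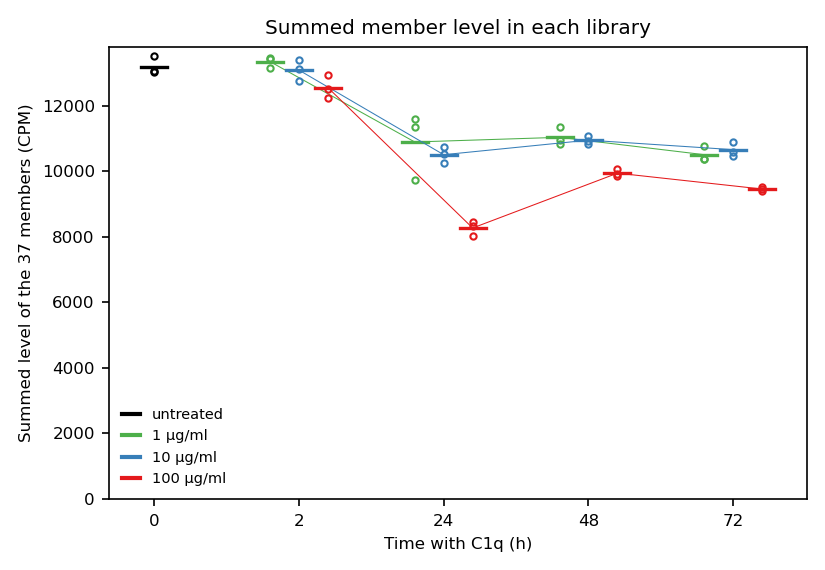
Summed level of the 37 members (CPM, vertical axis) in each library against time with C1q (h, horizontal axis), with points for libraries, bars for group means and colours for doses. The 3 libraries of 100 µg/ml at 24 h, at 8035 to 8449 CPM, are the lowest of the 39, and the third of 1 µg/ml at 24 h lies below the others of its group.

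The comparison of 100 with 1 µg/ml at the same time asks what the dose changed, with time in culture held equal. At 24 h the machinery was lower at the high dose: 18 of the 36 tested members were called, all of them lower, with a median over the members of -0.28 (log2 difference) beside 0.03 over all 14419 genes tested. The members called were the disulphide isomerases and Canx, the chaperones Sdf2l1, Hsp90b1, Manf and Hspa5, much of the translocon, and 2 of the 3 collagen chaperones, at 0.50 to 0.83 times the level at 1 µg/ml. None of the 6 tested ERAD genes was called, and of the sensors and factors Xbp1 alone was. Over all genes tested, 7.21% were called lower and 3.77% higher. Calls are adjusted p-values under 0.05 from edgeR's quasi-likelihood test, and differences are log2 values ± SE with 3 libraries per group.

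Among the lumenal chaperones, 4 of 9 were lower at 100 than at 1 µg/ml after 24 h. Sdf2l1 encodes a partner of ER-resident J-domain proteins. Its level was 36.9, 33.3 and 27.5 CPM at 1 µg/ml and 14.7, 16.5 and 18.1 CPM at 100 µg/ml. The groups did not overlap, and the difference was -0.99 ± 0.16 (adjusted p = 2.42e-05). Hsp90b1, the Hsp90 of the compartment, stood at 999, 798 and 745 CPM at 1 µg/ml and 515, 508 and 480 CPM at 100 µg/ml. It differed by -0.76 ± 0.091 (adjusted p = 5.19e-08), with all 3 high-dose libraries below the others. Hspa5, which encodes BiP, the chaperone that also holds the sensors inactive, was at 699, 674 and 599 CPM at 1 µg/ml and 447, 483 and 512 CPM at 100 µg/ml. This is a difference of -0.45 ± 0.077 (adjusted p = 4.47e-05). Manf, which encodes a secreted stress-induced protein that binds BiP and is named here after its values were seen, was at 491, 501 and 318 CPM at 1 µg/ml and 275, 244 and 275 CPM at 100 µg/ml, a difference of -0.72 ± 0.11. The value of 318 CPM is that of the library that stood apart. The other 5 chaperones were not called, from -0.28 ± 0.12 for Dnajb11 to -0.15 ± 0.079 for Dnajc3.

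All 5 genes of the calnexin and disulphide isomerase group were lower. Pdia6, a disulphide isomerase that works with BiP, was at 428, 410 and 398 CPM at 1 µg/ml and 244, 265 and 290 CPM at 100 µg/ml (-0.63 ± 0.081, adjusted p = 2.12e-07). Pdia3, the isomerase that serves calnexin and calreticulin on glycoproteins, was at 1010, 974 and 745 CPM against 585, 611 and 614 CPM (-0.59 ± 0.080, adjusted p = 6.41e-07). In both genes every high-dose library was below every low-dose library. Pdia4 differed by -0.47 ± 0.097. P4hb, an isomerase that is also a subunit of collagen prolyl hydroxylase, differed by -0.31 ± 0.089 and Canx, the membrane-bound lectin chaperone, by -0.28 ± 0.090. Their calls were less firm: that of P4hb was lost without the second 1 µg/ml library or the first 100 µg/ml library, and that of Canx on leaving out any library of the 2 groups except the third of 1 µg/ml.

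In the translocon and signal peptidase group, 6 of 10 genes were lower and all 10 had a negative difference. Sec61b encodes the small beta subunit of the channel. Its level was 290, 288 and 179 CPM at 1 µg/ml and 142, 126 and 140 CPM at 100 µg/ml (-0.90 ± 0.12, adjusted p = 2.43e-07). Ssr4, the delta subunit of the translocon-associated complex that helps chains to insert, was at 277, 241 and 182 CPM against 131, 133 and 125 CPM (-0.85 ± 0.098, adjusted p = 2.08e-08). The 100 µg/ml libraries of both genes lay close together and below all those of 1 µg/ml. The subunits Ssr1 and Ssr2 differed by -0.35 ± 0.081 and -0.41 ± 0.094, and Spcs2, a signal peptidase subunit, by -0.57 ± 0.11. Sec61g, the gamma subunit, overlapped between the groups, at 251, 208 and 139 CPM against 151, 154 and 151 CPM. Its call (-0.40 ± 0.14, adjusted p = 0.0471) was lost on leaving out any library of the groups except the third of 1 µg/ml.

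Of the collagen chaperones, Ppib, cyclophilin B, was at 560, 468 and 396 CPM at 1 µg/ml and 335, 358 and 328 CPM at 100 µg/ml (-0.48 ± 0.097, adjusted p = 0.00046). Serpinh1, which encodes Hsp47, the chaperone that binds the collagen triple helix, was at 1618, 1775 and 1388 CPM against 1131, 1127 and 1216 CPM (-0.46 ± 0.086, adjusted p = 0.000159). Neither gene's groups overlapped. Fkbp10, a prolyl isomerase of collagen, was at 115, 126 and 119 CPM against 118, 124 and 115 CPM, which overlapped (-0.01 ± 0.090, not called).

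The ERAD genes did not follow at this time. Their differences ran from -0.07 ± 0.11 for Derl2, a subunit of the retrotranslocation complex, to 0.18 ± 0.10 for Sel1l, the adaptor of the ubiquitin ligase, with a median of 0.06. At an unadjusted p under 0.05, 0 of the 6 passed in edgeR, and DESeq2 called 0 as well. Herpud1, an ERAD scaffold and a marker of the stress response, was at 125, 130 and 116 CPM at 1 µg/ml and 118, 138 and 138 CPM at 100 µg/ml. Edem1, which hands misfolded glycoproteins to ERAD, was at 80.2, 96.8 and 84.3 CPM against 95.4, 81.5 and 89.5 CPM. Both genes overlapped between doses. Among the sensors and factors, Xbp1, whose spliced RNA makes the active factor, was at 214, 235 and 202 CPM against 175, 178 and 191 CPM (-0.26 ± 0.086, adjusted p = 0.039), and this call was lost without the first or the second library of either dose. Gene counts do not part spliced from unspliced Xbp1. Atf6 was at 49.8, 46.2 and 47.4 CPM against 52.7, 50.5 and 46.7 CPM, and Ern1, which encodes the sensor that splices Xbp1, at 16.5, 12.9 and 14.0 CPM against 20.6, 13.9 and 21.3 CPM. Both overlapped and neither was called (0.06 ± 0.14 and 0.36 ± 0.22).

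Within the columns of 1 spelling, which leave the third 1 µg/ml library to stand for its dose against the 3 of 100 µg/ml, 3 members were called lower (Hsp90b1, Pdia6 and Ssr4), the median over the members was -0.19, and 1.89% of all genes tested were called; the lone library is there assumed to vary like the other groups. In place of 1 µg/ml the 3 libraries of 10 µg/ml, all of the same spelling, may be set against those of 100 µg/ml. This comparison was added after the data were seen. It called 16 of the 36 members, all lower, with a median of -0.27, beside 6.66% of all genes called lower and 3.37% higher. Of the 16, 15 were also called in the comparison with 1 µg/ml, which shares the 100 µg/ml libraries. Ssr4 differed by -0.80 ± 0.099, Sdf2l1 by -0.80 ± 0.17, Sec61b by -0.77 ± 0.12 and Hsp90b1 by -0.60 ± 0.091. Hsp90b1, Pdia6 and Ssr4 kept their call under all 15 alternatives run, while 9 members (Hspa5, Manf, Pdia3, Pdia4, Ppib, Sdf2l1, Sec61b, Serpinh1 and Spcs2) lost it under the 1 spelling only. Fibroblast markers moved too at 24 h, from a summed level of 8609 to 10150 CPM at 1 µg/ml to 6988 to 7686 CPM at 100 µg/ml, as did endothelial markers (64.8 to 71.28 and 48.42 to 51.07 CPM), mural markers (87.67 to 103.6 and 67.31 to 70.92 CPM), epithelial markers (261.3 to 296.8 and 211.4 to 258.1 CPM) and cell cycle genes (391.3 to 448.8 and 352.8 to 378.9 CPM). Myeloid markers (420.5 to 459.5 and 422.2 to 443.8 CPM) and mesothelial markers (224.6 to 302.2 and 218.5 to 235.8 CPM) overlapped. The part of these shifts in the result was not tested.

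**Figure D2:**
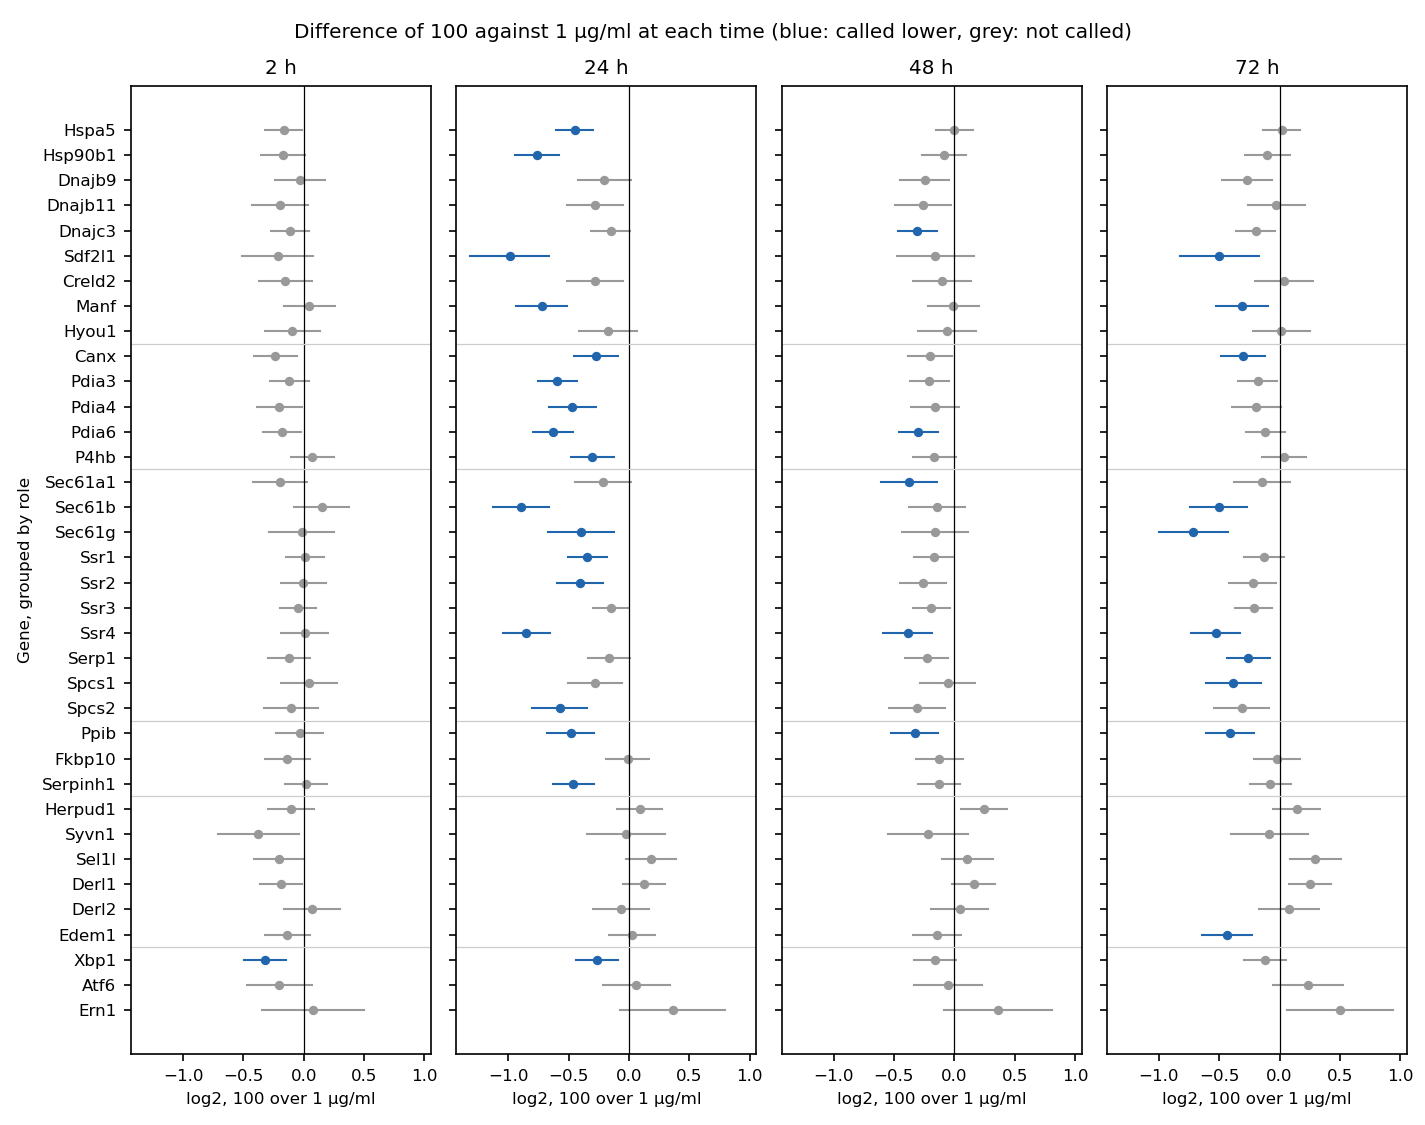
Log2 difference of 100 against 1 µg/ml (horizontal axis) at each of the 4 times for the 36 tested members (vertical axis, grouped by role), with points for the fitted values, lines for 95% intervals, blue for genes called lower and grey for genes not called. At 24 h 18 members are blue, at 2 h 1, at 48 h 5 and at 72 h 10, and the ERAD genes lie near 0 at 24 h.

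At the other times fewer members differed between 100 and 1 µg/ml. After 2 h Xbp1 alone was called, at 244, 234 and 235 CPM against 192, 182 and 198 CPM (-0.32 ± 0.087, adjusted p = 0.0278), beside 1.94% of all genes called lower and 1.28% higher. The Xbp1 groups did not overlap, but the call was lost on leaving out any of the 6 libraries. Against 10 µg/ml at 2 h, with the same 100 µg/ml libraries, Xbp1 was again the 1 member called. It was lower at 100 µg/ml (-0.38 ± 0.087, adjusted p = 0.00502), beside 2.64% of all genes called lower and 0.888% higher. That comparison was not rerun with libraries left out. After 48 h 5 members were lower, beside 6.44% of all genes called lower and 3.82% higher: Ssr4, Sec61a1, Ppib, Dnajc3 and Pdia6, from -0.39 ± 0.10 for Ssr4 to -0.30 ± 0.081 for Pdia6. Of these, Sec61a1 encodes the pore of the channel and Dnajc3 a co-chaperone of BiP. Leaving out the second 1 µg/ml library reduced the 5 to 1, the third 1 µg/ml library to 3, and the first or the third 100 µg/ml library to 2. In the columns of 1 spelling, with 1 library left at 1 µg/ml, all 5 calls were lost. Against 10 µg/ml at 48 h, Ssr4, Ppib, Ssr2 and Spcs2 were lower and none higher, beside 6.17% of all genes called lower and 3.16% higher, so 2 of the 5 were called there too. Marker sums shifted too at 48 h, given for 1 and then 100 µg/ml. Cell cycle genes were at 301.2 to 316.8 and 197.6 to 214.2 CPM. Myeloid markers were at 755.1 to 825.2 and 655.6 to 701.2 CPM. Fibroblast, epithelial, endothelial and mesothelial markers were also lower without overlap, while mural markers overlapped. The part of these shifts in the result was not tested.

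After 72 h 10 members were lower at 100 than at 1 µg/ml, beside 6.51% of all genes called lower and 4.99% higher. They were 5 of the 10 translocon genes, Sdf2l1, Manf, Canx, Edem1 and Ppib. Sec61g had the largest difference, at 217, 171 and 164 CPM at 1 µg/ml against 103, 120 and 112 CPM at 100 µg/ml (-0.71 ± 0.14, adjusted p = 0.000317). Ssr4 was at 209, 178 and 182 CPM against 143, 128 and 123 CPM (-0.53 ± 0.10, adjusted p = 0.000175), and Sec61b at 229, 220 and 240 CPM against 161, 167 and 157 CPM (-0.51 ± 0.12, adjusted p = 0.00201). In these 3 subunits no library of one dose reached those of the other. Edem1 was lower at this time, at 79.7, 79.0 and 73.2 CPM against 58.3, 57.3 and 55.9 CPM (-0.44 ± 0.10, adjusted p = 0.00259). Hspa5, at 697, 704 and 687 CPM against 675, 697 and 743 CPM, overlapped and was not called (0.02 ± 0.077). Edem1, Ppib, Sec61b, Sec61g and Ssr4 kept their call under all 14 alternatives, and each of the other 5 lost it on leaving out at least 1 library. The count of 10 was 6 without the third library of 100 µg/ml. Against 10 µg/ml at 72 h, 10 members were lower, beside 6.37% of all genes called lower, and 8 of them were among the 10 named here, Canx and Serp1 being the exceptions. The ERAD genes Sel1l (0.38 ± 0.10) and Derl1 (0.26 ± 0.087) were higher at 100 than at 10 µg/ml, beside 4.19% of all genes called higher. Marker sums are given for 1 and then 100 µg/ml at 72 h. Fibroblast markers were higher (8799 to 9323 and 9711 to 10580 CPM). Lower were myeloid (1348 to 1448 and 1020 to 1240 CPM) and mesothelial markers (411.8 to 470.9 and 258.1 to 296.5 CPM). Endothelial markers (85.92 to 115.9 and 58.29 to 71.76 CPM) and cell cycle genes were also lower. Epithelial and mural markers overlapped. The part of these shifts in the result was not tested.

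Whether the difference between the doses itself varied over the 4 times was tested as the interaction of dose and time. It was called for 9 of the 36 members (25%), beside 6.78% of all genes tested. The members were Sec61b, Ssr4, Hsp90b1, Manf, Pdia6, Hspa5, Pdia3, Serpinh1 and Sdf2l1, with adjusted p-values from 9.28e-05 for Sec61b to 0.0371 for Sdf2l1. In Hspa5 the difference was -0.17 ± 0.076 at 2 h, -0.45 ± 0.077 at 24 h, -0.001 ± 0.077 at 48 h and 0.02 ± 0.077 at 72 h. None of the ERAD genes or sensors was among the 9. Without the 1 µg/ml library that stood apart at 24 h, 16 members were called, and without the second 1 µg/ml library at 24 h, 6 were.

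Between 10 and 1 µg/ml no member was called at any time. At an unadjusted p under 0.05, 3, 2, 0 and 0 of the 36 members passed at 2, 24, 48 and 72 h in edgeR, and DESeq2 called 0 at each time. Over all genes tested, 0.839, 0.0485, 0.208 and 0% were called. The intervals bound what could be missed: at 24 h they ran from -0.51 at the lowest end to 0.57 at the highest over the 36 members. Without the 1 µg/ml library that stood apart, 1 member was called there. For Hspa5 the 10 µg/ml libraries at 24 h were at 641, 560 and 637 CPM, within reach of the 1 µg/ml libraries and above all of 100 µg/ml, with a difference from 1 µg/ml of -0.10 ± 0.077.

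The comparisons with untreated cells ask what had changed since 0 h. They share the same 3 untreated libraries, and time in culture and C1q cannot be told apart in them. At 2 h little of the machinery had changed: 2, 3 and 1 of the 36 members were called higher at 1, 10 and 100 µg/ml, beside 4.28, 7.64 and 3.14% of all genes tested, and 0, 1 and 0 lower, beside 1.87, 5.1 and 2.02%. These shares are near the background. The member called at all 3 doses was Dnajb9, which encodes ERdj4, the BiP co-chaperone that targets clients for ERAD. It was at 47.7, 51.6 and 58.3 CPM in untreated cells, at 76.6, 69.8 and 63.5 CPM at 1 µg/ml, at 67.6, 71.3 and 73.6 CPM at 10 µg/ml and at 67.4, 67.6 and 70.7 CPM at 100 µg/ml. Every C1q library exceeded every untreated library, with differences of 0.41 ± 0.11, 0.43 ± 0.11 and 0.38 ± 0.11. The calls at all 3 doses were lost without the first untreated library, that at 1 µg/ml also without its first library, and that at 100 µg/ml also without the second untreated library or any of its own. By DESeq2, 1, 3 and 0 members were called at the 3 doses.

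The sensor genes were higher at 2 h in part. Ern1 was at 10.0, 14.7 and 16.2 CPM in untreated cells and at 25.6, 34.3 and 24.0 CPM at 10 µg/ml (1.04 ± 0.22, adjusted p = 0.000526), with no overlap. It was at 18.4, 19.5 and 19.7 CPM at 1 µg/ml and 21.2, 20.6 and 18.6 CPM at 100 µg/ml, where it was not called (0.50 ± 0.23 and 0.58 ± 0.23). Atf6 was at 45.7, 50.5 and 49.4 CPM in untreated cells, at 57.5, 71.5 and 70.3 CPM at 1 µg/ml and at 70.7, 80.1 and 68.0 CPM at 10 µg/ml (0.45 ± 0.14 and 0.59 ± 0.14, both called). At 100 µg/ml it was at 48.0, 61.9 and 63.5 CPM, overlapping the untreated cells (0.25 ± 0.14, not called). The Atf6 call at 1 µg/ml was lost on leaving out any untreated library, or the second or the third of its own. Ern1 and Atf6 at 10 µg/ml kept theirs under all 13 alternatives. Xbp1 was not called at any dose, at 216, 203 and 214 CPM in untreated cells and between 182 and 287 CPM at 2 h. The 1 member called lower was Ssr4 at 10 µg/ml (-0.29 ± 0.098), a call lost without any untreated library or the first of 10 µg/ml. Without the first untreated library the counts of members called were 0, 2 and 0 at 1, 10 and 100 µg/ml, and without the second they were 1 and 0 at 1 and 100 µg/ml. Leaving out the third untreated library or any library of 1 µg/ml left 1 member called at that dose, and leaving out any of 100 µg/ml left 0 there.

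By 24 h a large part of the members had fallen below untreated cells, and most at the highest dose. At 1, 10 and 100 µg/ml, 13, 15 and 25 of the 36 were lower, beside 14.3, 15.3 and 19.9% of all genes tested, and 0, 1 and 0 were higher, beside 10.9, 12.5 and 16.8%. The medians over the members were -0.16, -0.19 and -0.46, beside 0.02, 0.02 and 0.05 over all genes. The summed level of 7 cell cycle genes moved in the same comparisons, from 1131 to 1230 CPM in untreated cells to 352.8 to 448.8 CPM at 24 h and 197.6 to 320.9 CPM at 48 and 72 h, and its part in the result was not tested. At 100 µg/ml the falls took in 8 of the 9 lumenal chaperones, all 5 of the calnexin and isomerase group, 8 of the 10 translocon genes and 2 of the 3 collagen chaperones, but 1 of the 6 ERAD genes (Edem1, -0.44 ± 0.092) and 1 of the 3 sensors and factors (Xbp1). The Xbp1 call (-0.22 ± 0.087) was lost without the first or the third untreated library, or the first or the second of 100 µg/ml.

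The deepest falls were in chaperones and isomerases. Sdf2l1 was at 48.1, 37.9 and 45.6 CPM in untreated cells and fell by 1.42 ± 0.16 on the log2 scale to the 14.7 to 18.1 CPM given above. Hsp90b1, at 1220, 1355 and 1240 CPM in untreated cells, differed by -1.34 ± 0.092. Hspa5, from 1036, 1113 and 1141 CPM, differed by -0.74 ± 0.077 at 1 µg/ml, -0.84 ± 0.077 at 10 µg/ml and -1.19 ± 0.077 at 100 µg/ml. Its fall was thus called at every dose, unlike that of Ssr4, which stood at 224, 235 and 223 CPM in untreated cells and was called at 24 h at 100 µg/ml alone (-0.81 ± 0.099). Sec61b, at 271, 276 and 248 CPM in untreated cells, was likewise called at 24 h at 100 µg/ml alone (-0.96 ± 0.12). The member called higher was Spcs1, a signal peptidase subunit, at 10 µg/ml (0.30 ± 0.11), a call lost on leaving out any library of these groups. All columns of 10 and 100 µg/ml at 24 h had the rarer spelling and the untreated columns had the other, so dose, time and spelling cannot be told apart there. At 1 µg/ml the 2 libraries with the spelling of the untreated columns gave 12 members called.

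At 48 h the count lower was 15, 12 and 19 at 1, 10 and 100 µg/ml, beside 17.1, 17.5 and 20.9% of all genes tested. Higher were 2, 1 and 1, beside 16, 17 and 19.1%. At 1 µg/ml the 1 library with the spelling of the untreated columns left 8 members called. At 72 h 18, 17 and 23 were lower, beside 20.1, 20.6 and 23.3%, and 2 were higher at each dose, beside 18.1, 19.3 and 22.5%. The shares of members called lower, from 33.3% at 10 µg/ml after 48 h to 63.9% at 100 µg/ml after 72 h, were above the background in each of these groups, and those called higher, at most 5.56%, were below it.

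**Figure D3:**
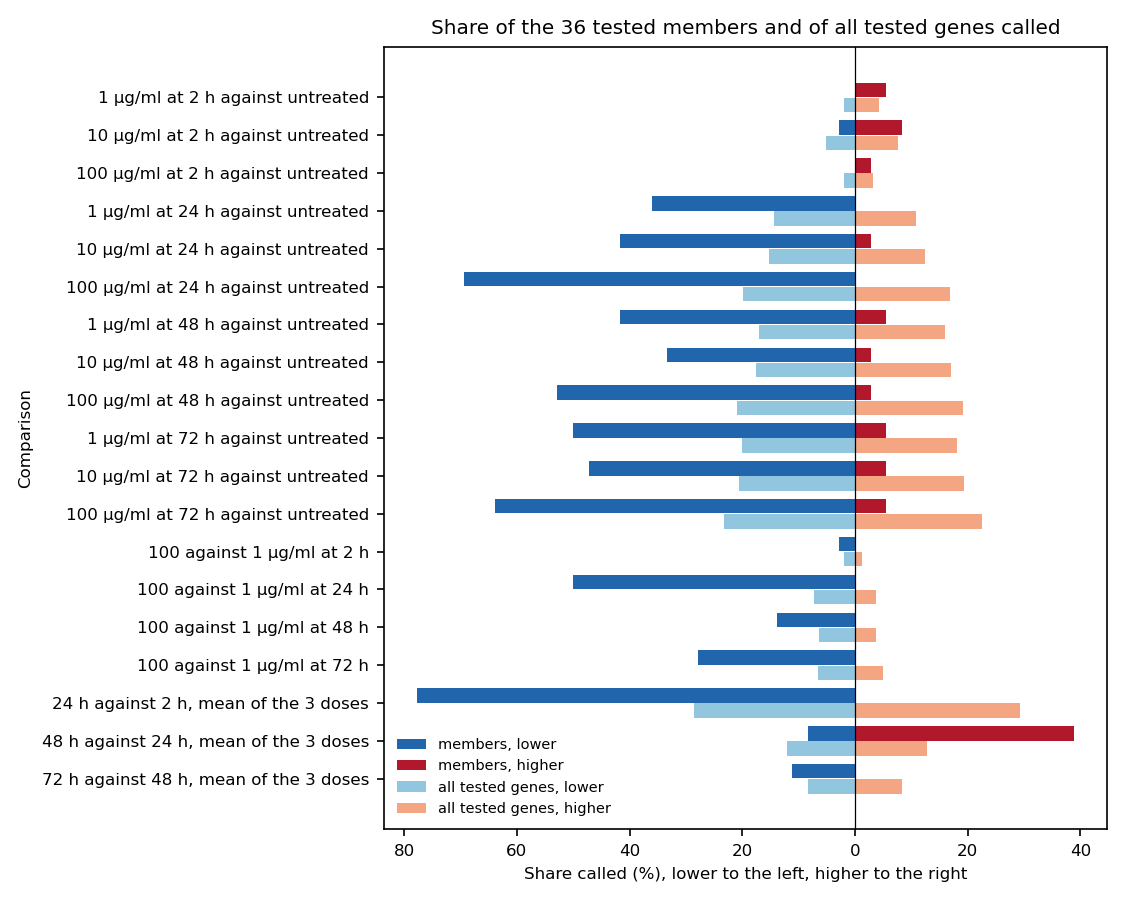
Share of the 36 tested members (dark bars) and of all 14419 tested genes (pale bars) called lower (left of 0) or higher (right of 0), in percent, for each comparison on the vertical axis. Members are called lower in 69.4% and all genes in 19.9% at 100 µg/ml after 24 h, while 48 h against 24 h is the comparison with the longest bar of members called higher, at 38.9%.

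At 72 h and 100 µg/ml the genes with the largest differences were Sec61g and Edem1. Sec61g was at 258, 275 and 235 CPM in untreated cells against 103, 120 and 112 CPM (-1.19 ± 0.14, adjusted p = 1.2e-09). Edem1 was at 123, 116 and 121 CPM against 58.3, 57.3 and 55.9 CPM (-1.07 ± 0.099, adjusted p = 1.48e-12). Both were below every untreated library at every dose after 72 h. Sdf2l1 (28.4, 19.9 and 19.6 CPM) differed by -0.98 ± 0.16 and Hsp90b1 (672, 649 and 695 CPM) by -0.92 ± 0.091. Pdia4, an isomerase with several thioredoxin-like domains, was at 186, 195 and 188 CPM in untreated cells and 98.8, 97.0 and 96.0 CPM (-0.96 ± 0.098), and Pdia3 (666, 687 and 698 CPM) differed by -0.84 ± 0.080. Ssr4 differed by -0.79 ± 0.10 and Serpinh1 (1303, 1280 and 1276 CPM) by -0.47 ± 0.086. These genes fell at 1 and 10 µg/ml as well at this time, save Ssr4, which was called at 1 µg/ml (-0.26 ± 0.097) but not at 10 µg/ml, and whose call at 1 µg/ml was lost without the second untreated library or the second or the third of its group.

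Smaller falls at 72 h and 100 µg/ml were those of Fkbp10 (92.8, 99.3 and 107 CPM, from 122, 119 and 115 CPM) and Herpud1 (128, 120 and 129 CPM, from 163, 149 and 147 CPM), at -0.25 ± 0.094 and -0.28 ± 0.096. Both calls were lost without the first untreated library, and that of Fkbp10 also without the first of 100 µg/ml. Spcs1 rose at 72 h at the lower doses and not at the highest, from 156, 160 and 151 CPM in untreated cells to 219, 186 and 197 CPM at 1 µg/ml (0.37 ± 0.11) and 217, 199 and 220 CPM at 10 µg/ml (0.45 ± 0.11). At 100 µg/ml it was at 169, 139 and 154 CPM (-0.02 ± 0.12), and its difference between 100 and 1 µg/ml was called (-0.38 ± 0.11). The rise at 1 µg/ml was lost without the third untreated library or the first of 1 µg/ml, and the dose difference without the first of 1 µg/ml or the second or the third of 100 µg/ml.

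Dnajb9 and Ern1 were, with Spcs1 and Dnajc3, the members called higher than untreated cells at 48 or 72 h. Dnajc3 was called at 1 µg/ml after 48 h (0.21 ± 0.079), and its call was lost without any untreated library or the first or the second of its group. Dnajb9 was at 80.2, 92.5 and 76.8 CPM at 1 µg/ml after 48 h, 88.0, 80.6 and 87.1 CPM at 10 µg/ml and 79.9, 60.3 and 70.7 CPM at 100 µg/ml, all above the untreated libraries (0.66 ± 0.11, 0.70 ± 0.11 and 0.42 ± 0.11, all called). At 72 h it was at 83.1, 72.8 and 85.2 CPM, at 76.7, 75.4 and 73.3 CPM and at 64.4, 69.7 and 64.8 CPM (0.61 ± 0.11, 0.52 ± 0.11 and 0.34 ± 0.11, all called). In between, at 24 h, it lay at 54.8, 48.9 and 55.9 CPM at 1 µg/ml and 47.5, 45.7 and 44.9 CPM at 100 µg/ml and was not called at any dose. The call at 100 µg/ml after 72 h was lost without the first untreated library or the second of its own group. Ern1 was at 23.8, 16.8 and 24.2 CPM at 100 µg/ml after 72 h (0.66 ± 0.23, adjusted p = 0.0163), above all untreated libraries, a call lost without the first untreated library or the first or the third of its group.

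**Figure D4:**
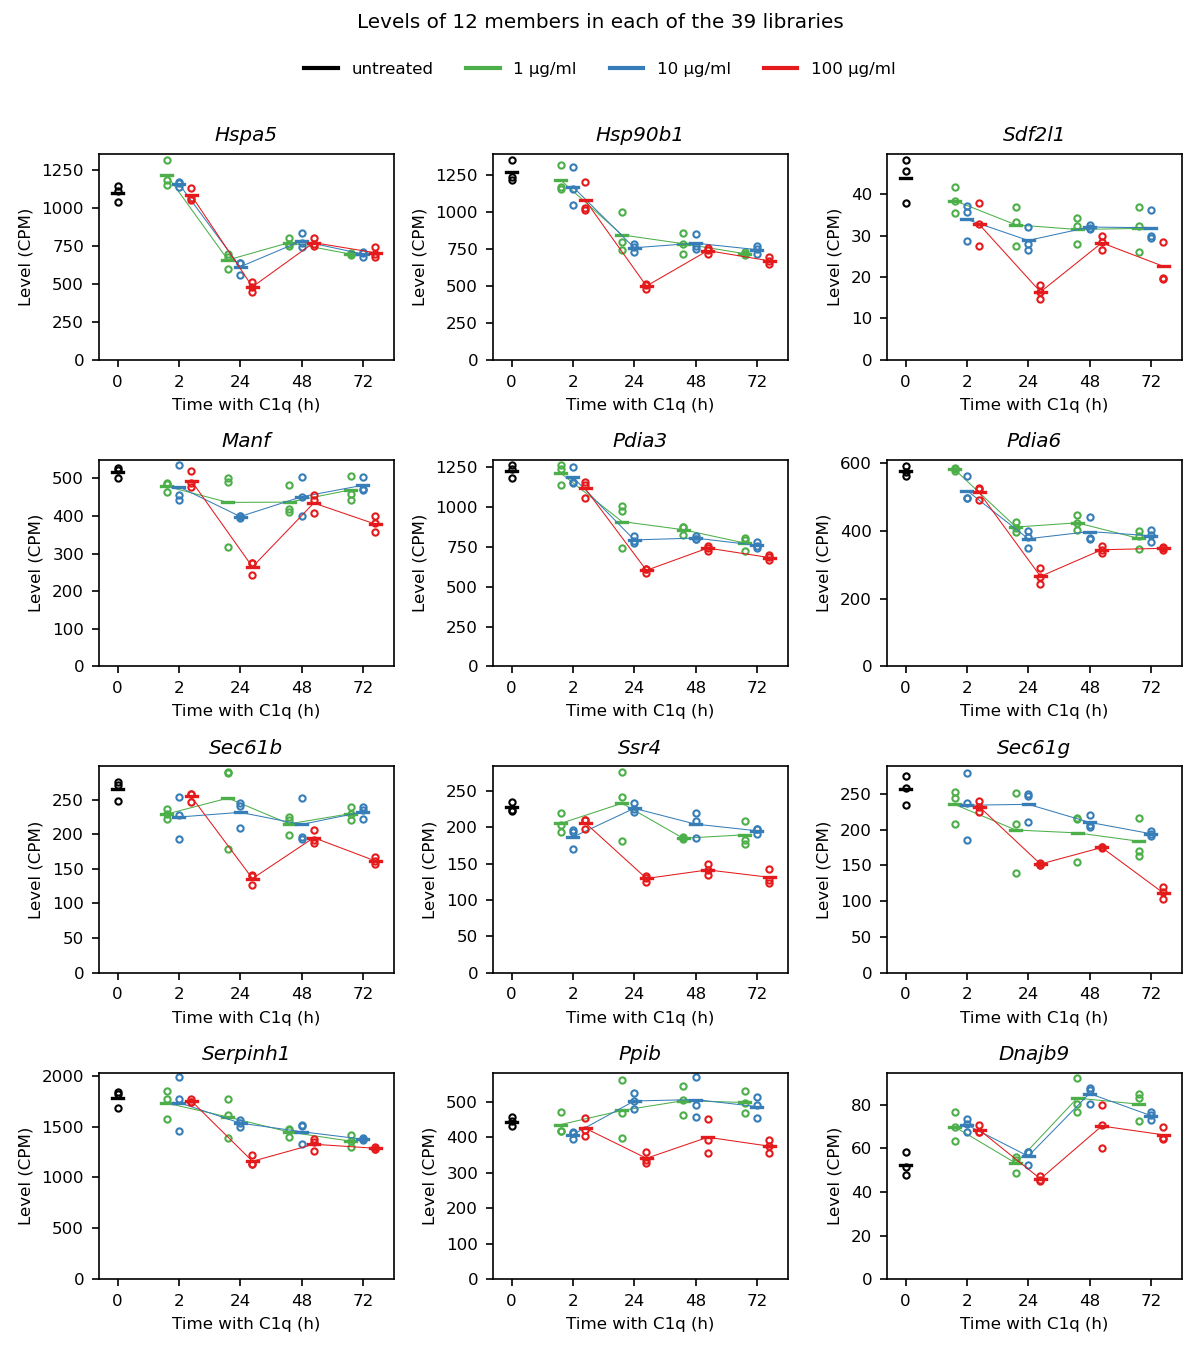
Levels of 12 members (CPM, vertical axes) in all 39 libraries against time with C1q (h, horizontal axes), with points for libraries, bars for group means and colours for doses. At 100 µg/ml the points at 24 h lie below those at 2 h in every panel, and this dose has the lowest mean at 24 h. At 1 and 10 µg/ml the means of Sec61b, Ssr4 and Ppib are higher at 24 h than at 2 h. Dnajb9 is above the untreated libraries at 2, 48 and 72 h.

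Neighbouring times were compared as means over the 3 doses, so that untreated cells do not enter. A member can thus be called though it moved at 1 dose alone. From 2 to 24 h, 28 of the 36 members fell in this mean, beside 28.6% of all genes called lower and 29.3% higher. The doses did not always move together. The group mean of Sec61b went from 255 to 136 CPM at 100 µg/ml, but from 229 to 252 CPM at 1 µg/ml and from 225 to 232 CPM at 10 µg/ml. Hspa5 fell most (-0.99 ± 0.044), followed by Hyou1, a large Hsp70 relative that recharges BiP with ATP (-0.83 ± 0.067), and Hsp90b1 (-0.75 ± 0.052). All 9 lumenal chaperones, all 5 of the calnexin and isomerase group and all 3 sensors and factors were among the 28, with 7 of the 10 translocon genes, 3 of the 6 ERAD genes and 1 of the 3 collagen chaperones. The call of Dnajc3 was lost in 8 of 25 alternatives, 4 of them with 1 library left out, that of Xbp1 without the third 10 µg/ml library at 2 h, and that of the ERAD gene Sel1l without the second 1 µg/ml library at 24 h. From 24 to 48 h, 14 members rose and 3 fell, beside 12.8% of all genes called higher and 12.1% lower. All 9 lumenal chaperones were among the risers, led by Dnajb9 (0.62 ± 0.060), Hspa5 (0.42 ± 0.044) and Hyou1 (0.38 ± 0.069). The group means of Dnajb9, Hspa5 and Hyou1 rose at each dose. Those of Hsp90b1, Sdf2l1 and Manf rose most at 100 µg/ml, from 501 to 741, 16.4 to 28.2 and 265 to 435 CPM. At 10 µg/ml they went from 760 to 791, 28.8 to 32.1 and 399 to 451 CPM. At 1 µg/ml they did not rise or hardly did, from 847 to 788, 32.6 to 31.5 and 436 to 437 CPM. Of the 9, Creld2 lost its call in 18 of 25 alternatives and Dnajb11 in 11, Hsp90b1 lost it without the 1 µg/ml library that stood apart at 24 h, and Sdf2l1 without the first 100 µg/ml library at 24 h. The isomerase group had 1 riser (Pdia6, 0.17 ± 0.046). The 3 that fell were Edem1 (-0.30 ± 0.056), Fkbp10 (-0.23 ± 0.053) and Derl1, a channel subunit of ERAD (-0.16 ± 0.050). From 48 to 72 h, 4 members fell, beside 8.27% of all genes called lower and 8.38% higher: Sec61g (-0.28 ± 0.079), Herpud1 (-0.23 ± 0.055), Derl2 (-0.20 ± 0.070) and Hspa5 (-0.15 ± 0.044). The calls of Derl1 and Derl2 were lost without the third 10 µg/ml library at 24 h and without any of 10 libraries, respectively. Hspa5 did not return to its start: the 9 libraries at 48 h lay between 742 and 835 CPM, below the 1036 CPM of the lowest untreated library. The rarer column spelling took in 7 of the 9 libraries at 24 h and 2 of the 9 at 48 h, so it cannot be told apart from time here.

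**Figure D5:**
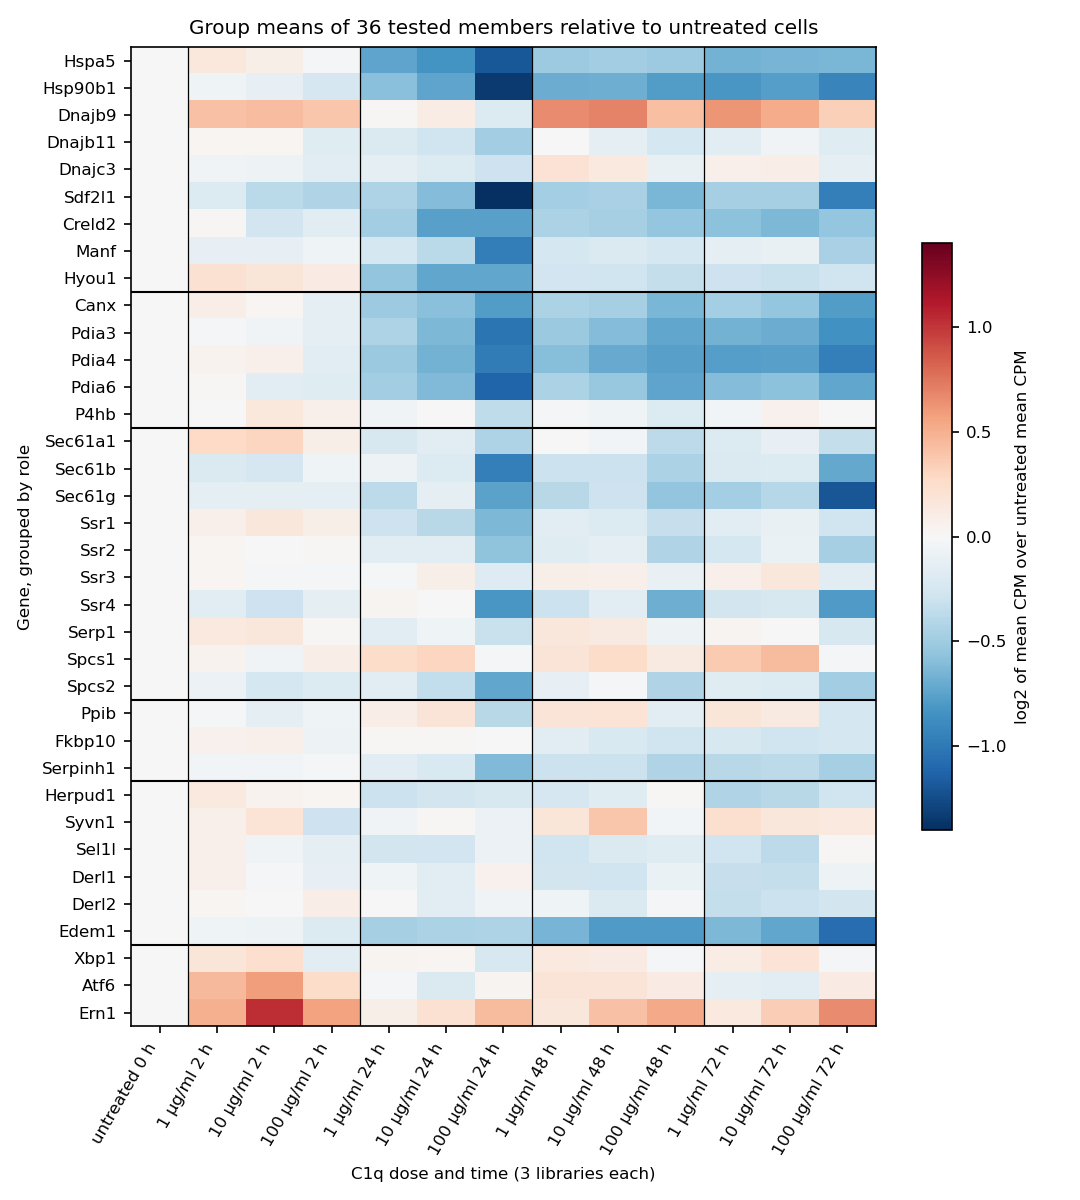
Group means of the 36 tested members (rows, grouped by role) as log2 of the mean CPM over the untreated mean CPM, for untreated cells and the 12 C1q groups (columns, 3 libraries each). Blue is lower and red higher than untreated cells. Hspa5, Hsp90b1, Sdf2l1 and Pdia6 are bluest at 100 µg/ml after 24 h, and Dnajb9 is red at 2, 48 and 72 h.

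The members with an ER stress element in the window and those without it were set side by side, as a description. Between 100 and 1 µg/ml at 24 h the median log2 difference was -0.28 in the 7 tested members with the element, of which 4 were called lower, and -0.30 in the 22 without it, of which 12 were called lower. From 2 to 24 h the medians were -0.62 with the element, -0.28 without it and -0.43 in the 7 members with no window, beside 0.05 over all genes. From 24 to 48 h they were 0.19, 0.07 and 0.14, beside 0.001 over all genes. These differences were not tested. Hspa5, Hsp90b1, Pdia6 and Canx, all shown above, were among those that fell from 2 to 24 h. Syvn1, which encodes the ERAD ubiquitin ligase Hrd1 and holds the element 26 bases before its start, was the member of the 7 that was not called there. Called lower from 2 to 24 h were 6 of the 7 with the element, 17 of the 22 without it and 5 of the 7 with no window. All tested members with the element except Syvn1 belong to the lumenal chaperones or the calnexin and isomerase group, so element and role overlap.

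Related genes outside the list were read for context. Of 9 oligosaccharyltransferase subunits, which attach glycans to chains as they enter, 7 were lower at 100 than at 1 µg/ml after 24 h, led by Ostc (-0.71 ± 0.12), Magt1 (-0.50 ± 0.10) and Dad1 (-0.44 ± 0.11). Of 14 other lumenal folding genes 5 were lower, among them Fkbp2 (-0.65 ± 0.12), the lectin chaperone Calr (-0.65 ± 0.087) and Sil1 (-0.61 ± 0.15), a nucleotide exchange factor of BiP. Of 14 other translocation genes 4 were lower, with Srp19 and Srp72 of the signal recognition particle at -0.44 ± 0.14 and -0.44 ± 0.096, and Srpr, its receptor, at -0.37 ± 0.090. Of 18 genes of the COPII coat and its cargo receptors 2 were lower, Tmed10 (-0.41 ± 0.092) and Lman1 (-0.36 ± 0.11). None of 10 other ERAD and sensor-processing genes was called in edgeR (1 at an unadjusted p under 0.05, and 0 by DESeq2), with a median of 0.07. All of these are read beside the 7.21% of genes called lower at this comparison.

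Cargo genes and chaperones outside the compartment were read at the same comparisons, beside 7.21% of all genes called lower and 3.77% higher at 24 h and 6.51% and 4.99% at 72 h. Of 14 tested genes of collagen modification 2 were lower and 1 higher at 24 h (Fkbp7, -0.67 ± 0.16, P4ha3, -0.51 ± 0.12, and P3h1, 0.34 ± 0.11). Of 10 genes of secreted matrix, Fn1 (-0.91 ± 0.16), Col3a1 (-0.57 ± 0.084) and Col1a2 (-0.30 ± 0.084) were lower at 24 h, whereas at 72 h Col1a1 (0.40 ± 0.11) and Col1a2 (0.30 ± 0.084) were higher at 100 than at 1 µg/ml. Of 13 cytosolic chaperones 3 were lower and 4 higher at 24 h. Hspa8, the constitutive Hsp70, was lower (-0.52 ± 0.078), and the heat-inducible pair Hspa1a and Hspa1b was higher (0.85 ± 0.21 and 0.84 ± 0.17), values that are uncertain for each gene since the 2 copies are nearly identical.

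For the PERK arm of the stress response, which works through the translation factor kinase encoded by Eif2ak3, 6 linked genes were read. Their RNA levels do not measure the activity of this kinase, and what moved these 6 genes was not tested. At 24 h edgeR called 0 of them between 100 and 1 µg/ml (1 at an unadjusted p under 0.05, and 0 by DESeq2), with Chac1 nearest the threshold (-0.83 ± 0.30, adjusted p = 0.0591). At 48 h 3 of the 6 were higher at 100 µg/ml, beside 3.82% of all genes, when the members called were lower. They were Trib3, a pseudokinase induced by the factor ATF4 (1.23 ± 0.18), Ddit3, which encodes the stress factor CHOP (1.06 ± 0.11), and Atf4 itself (0.48 ± 0.092). The same 3 were higher at 72 h (1.14 ± 0.21, 1.00 ± 0.11 and 0.48 ± 0.094). Against untreated cells, Ddit3 was higher at 100 µg/ml after 72 h (0.53 ± 0.11) and lower at 1 µg/ml (-0.47 ± 0.12), while Trib3 was lower at both doses (-0.63 ± 0.17 and -1.76 ± 0.19).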

How the data were processed

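Poly(A) RNA was caught on beads and its 5' ends were sequenced, per the labels' protocols. The submitters' processing notes name cutadapt 2.1.0, Bowtie2 2.4.2 and GRCm38. How strand and reads with multiple matches were counted is not given in the sources used here. The authors deposited raw counts per gene name in 39 columns, matched to samples by the number in the column name. Groups follow the labelled dose and time.

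Counts were tested with edgeR 4.0.16 (R 4.3.3), quasi-likelihood fit, TMM scaling, default filter (14419 genes with 99.4% of counts), 1 mean per group over all 39 libraries, Benjamini-Hochberg over all genes tested, threshold 0.05, in 24 comparisons. The script was tested on simulated data. Alternatives were DESeq2 1.42.0, RLE scaling, no filter, thinned counts, only the libraries compared, counts without the name LOC118568312, an adjusted p under 0.01 and each library left out. Added after seeing the data were columns of 1 spelling and 10 in place of 1 µg/ml. Replicate pairs (chi-square per degree of freedom 1.31 to 8.48 over genes with at least 20 counts) held no duplicate.

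The members, gene lists and alternatives were chosen with earlier results of these data known. Named per library were Hspa5, Xbp1, Atf6, Ern1 and up to 2 called members per role with the largest difference in 100 against 1 µg/ml at 24 h and in 100 µg/ml at 72 h against untreated. Elsewhere the largest called rises and falls per role were named, and up to 3 called genes per other list. Values of others named were chosen after they were seen. Promoter windows of 300 bases come from RefSeq (GRCm38.p6), and 30 of 37 members matched by symbol. Figures were drawn with matplotlib 3.10.9.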

Additional observations from a re-analysis of the deposited data

Results flagged for a closer look

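The difference between 100 and 1 µg/ml varied over the 4 times for 9 of the 36 tested members, by a test of the interaction of dose and time in edgeR's quasi-likelihood fit. The adjusted p-values were 9.28e-05 for Sec61b, 0.000378 for Ssr4, 0.000518 for Hsp90b1, 0.00112 for Manf, 0.00691 for Pdia6, 0.00727 for Hspa5, 0.0118 for Pdia3, 0.0298 for Serpinh1 and 0.0371 for Sdf2l1. In each of the 9 the largest difference of the 4 times was at 24 h. At that time all 100 µg/ml columns but only the third of 1 µg/ml had the rarer spelling. The interaction was not run within 1 spelling, so the part of spelling in it cannot be told apart. In Sec61b the differences were 0.15 ± 0.11, -0.90 ± 0.12, -0.14 ± 0.12 and -0.51 ± 0.12 at 2, 24, 48 and 72 h, and in Ssr4 0.01 ± 0.097, -0.85 ± 0.098, -0.39 ± 0.10 and -0.53 ± 0.10.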

How the results depend on the processing

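Over 7 other settings of the fit, 151 of 168 counts stayed within 1.5 times the count reported. Counts of members called that moved more were these. Without a filter, 100 µg/ml at 2 h against untreated gave 0, 100 against 1 µg/ml at 2 h 0 and 72 against 48 h 2. At an adjusted p under 0.01, 1 and 100 µg/ml at 2 h gave 1 and 0, 1 µg/ml at 48 h 11, 100 against 1 µg/ml 0, 2 and 5 at 2, 48 and 72 h, 48 against 24 h 11 and 72 against 48 h 2. Thinned counts gave 1 and 2 at 1 and 100 µg/ml after 2 h, and DESeq2 gave 1 and 0. Only the libraries compared, or no LOC118568312, gave 0 for 100 against 1 µg/ml at 2 h. With the columns of 1 spelling, 100 against 1 µg/ml gave 3 at 24 h and 0 at 48 h, 1 µg/ml at 48 h against untreated gave 8, and Sec61g at 24 h turned from -0.40 to 0.13 (adjusted p = 0.798). The cause was not tested. Leaving out 1 library gave these ranges against untreated at 1, 10 and 100 µg/ml: 0 to 1, 2 to 6 and 0 to 1 at 2 h, 10 to 15, 13 to 16 and 24 to 26 at 24 h, 14 to 17, 11 to 16 and 18 to 22 at 48 h, and 16 to 20, 16 to 20 and 20 to 26 at 72 h. For 100 against 1 µg/ml they were 0 to 0, 14 to 20, 1 to 5 and 6 to 9 at 2, 24, 48 and 72 h, for 10 against 1 µg/ml 0 to 1 at 24 h and 0 elsewhere, for neighbouring times 26 to 29, 13 to 18 and 3 to 6, and for the interaction 6 to 16. Another scaling moved the median of all genes by less than 0.1 (log2). No paired analysis was possible because the labels give no replicate numbers. Genes with low counts, such as Ern1 and Derl3, are limited by depth.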
